A study of Mus musculus with 6 samples.

Results

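Interferon response genes are the transcripts that cells switch on when an interferon binds its receptor, and 41 of them, chosen by gene name, were followed among the 33697 genes counted in sorted reporter-positive cells of the mouse gut. Each of the 41 names was found once in the gene list. Live tdTomato+ cells had been sorted from digested lamina propria of specific pathogen-free C57BL/6 mice with the Flare-TSLP allele, which places a red fluorescent reporter in the gene of the alarmin cytokine Tslp and derives from a single targeted embryonic stem cell clone, and were profiled by droplet-based 3′ single-cell RNA sequencing. Of the 6 libraries, 2 came from proximal and 2 from distal small intestine, and cecum and large intestine gave 1 each. The labels name no treatment, every library carried the same reporter allele and the same sort, and neither reporter-negative cells nor mice without the allele were compared. Each library pooled cells marked with 3 hashtag antibodies, the labels do not pair hashtags with mice, and each library was therefore counted as 1 sample. A p-value below measures the spread between libraries only.

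In cells, type I and type III interferons act through Ifnar1 with Ifnar2 or Ifnlr1 with Il10rb, and the kinases Jak1 and Tyk2 then signal through STAT2 and IRF9 to the interferon-stimulated response element (ISRE). Type II interferon acts through Ifngr1 and Ifngr2 and reaches its targets through the gamma-activated site (GAS). In the gut wall the program is known for tonic, microbiota-dependent activity as well as for antiviral defence. The 41 genes fall into 5 regulators (Irf1, Irf7, Irf9, Stat2, Nlrc5), 4 nucleic acid sensors (Ifih1, Ddx60, Dhx58, Zbp1), 13 antiviral effectors (IFIT, OAS and MX genes with Rsad2, Cmpk2, Eif2ak2 and Bst2), 3 genes of ISG15 conjugation (Isg15, Usp18, Herc6), 6 other induced genes, 7 GTPases (GBP and IRG families) and 3 genes of antigen processing (Tap1, Psmb8, Psmb9).

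The libraries held 11174 to 19073 cells after filtering, 93558 in all, with a median of 6606.5 to 9233 UMIs (unique molecular identifiers, each 1 captured transcript) per cell. Cells were assigned to classes by how many genes of a fixed marker list they expressed, and no interferon response gene was a marker. The gate placed 70950 cells in the fibroblast-like class and 15304 in the lymphatic endothelial cell (LEC)-like class. Levels are given as CPM, which scales the summed counts of each class and library to 1000000. The 6 LEC markers, which include Prox1, summed to 16606 to 22503 CPM in LEC-like sums and to 16.2 to 146 in fibroblast-like sums, and Ptprc, which encodes CD45, did not exceed 2.45 CPM in either class. Tslp itself, whose reporter was sorted on, was at 0.685 to 2.72 CPM in fibroblast-like and at most 1.71 CPM in LEC-like sums. No Tslp UMI was counted in any of the 5 blood endothelial-like, 6 smooth muscle-like and 3 T cell/ILC-like sums or in 4 of the 5 B/plasma cell-like sums, each of far fewer cells, where a count of 0 still allows 3. Whether these cells carried the reporter or passed the sort without it was not tested. A 3′ library yields 1 tag per transcript whatever its length, so levels of different genes may be set side by side, within the limits of capture.

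The ISRE lies in the promoters of many of these genes, and the sequences below show it in genes whose levels the comparisons turn on. RefSeq promoter windows, 250 bases before to 50 after the start in build GRCm38.p6, were at hand for 32 of the 41 genes. The core of this element, GAAA followed by any 2 bases and a second GAAA, was searched on both strands and occurred in the windows of 18 of these 32 genes, against 3.99% of all 27025 genes in the table. Each line gives 60 bases around a match, which lay 4 to 144 bases before the start, written 5′ to 3′ on the gene's strand with every complete match in capitals (either strand, overlapping matches merged).
Isg15 (chr4:156200850-156200909, minus strand): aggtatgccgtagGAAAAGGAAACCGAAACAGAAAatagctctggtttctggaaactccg
Rsad2 (chr12:26456538-26456597, minus strand): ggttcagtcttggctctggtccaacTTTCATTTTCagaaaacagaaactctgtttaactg
Bst2 (chr8:71537562-71537621, minus strand): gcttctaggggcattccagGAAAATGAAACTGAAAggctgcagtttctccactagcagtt
Ifit1 (chr19:34640779-34640838, plus strand): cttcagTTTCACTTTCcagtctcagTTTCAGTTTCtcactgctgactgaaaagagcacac
Ifit3 (chr19:34583382-34583441, plus strand): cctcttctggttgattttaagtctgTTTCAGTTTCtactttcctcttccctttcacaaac
Ifit3b (chr19:34607778-34607837, plus strand): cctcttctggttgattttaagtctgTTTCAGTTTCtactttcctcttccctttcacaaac
Gbp2 (chr3:142620579-142620638, plus strand): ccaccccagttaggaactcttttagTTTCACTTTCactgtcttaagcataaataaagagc
Igtp (chr11:58199496-58199555, plus strand): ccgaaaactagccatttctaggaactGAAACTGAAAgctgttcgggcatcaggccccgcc
Oas1a (chr5:120907526-120907585, minus strand): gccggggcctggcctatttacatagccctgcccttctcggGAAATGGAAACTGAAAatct
Isg15 held 3 overlapping matches in 1 run. The stretches of Ifit3 and Ifit3b are identical over all 60 bases, and the 2 windows share a run of 169 bases. These neighbouring paralogs on chromosome 19 are near copies, so their UMIs may have been split or discarded by the counting and their separate levels are uncertain. The GAS-type motif TTCNNNGAA occurred in 10 of the 32 windows, against 9.55% of all genes.

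The 41 genes were highest in blood vessel cells and lymphatics and lowest in B and plasma cells. Their summed level was 6649 ± 1300 CPM in blood endothelial-like cells (SD, n = 5 libraries with at least 50 cells), 4947 ± 280.5 in pericyte-like cells (n = 2), 4923 ± 535 in LEC-like cells (n = 6) and 3825 ± 730 in subepithelial fibroblast-like cells (n = 6). It was 3034 ± 246 in myeloid-like cells (n = 2), 2526 ± 318 in all fibroblast-like cells (n = 6), 2467 ± 606 in trophocyte-like cells (n = 6) and 2186 ± 401 in universal fibroblast-like cells (n = 2). The lowest sums were those of T cell/ILC-like cells, 1842 ± 41 (n = 3), smooth muscle-like cells, 1778 ± 361 (n = 6), and B/plasma cell-like cells, 1088 ± 184 (n = 5). Pericyte-like and LEC-like cells differed by less than the SD of either, as did trophocyte-like and all fibroblast-like cells, and T cell/ILC-like cells lay within the SD of smooth muscle-like cells. Barcodes with at most 100 UMIs, taken as free RNA, held the 41 genes at 2377 to 3165 CPM, close to the fibroblast-like level.

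**Figure D1:**
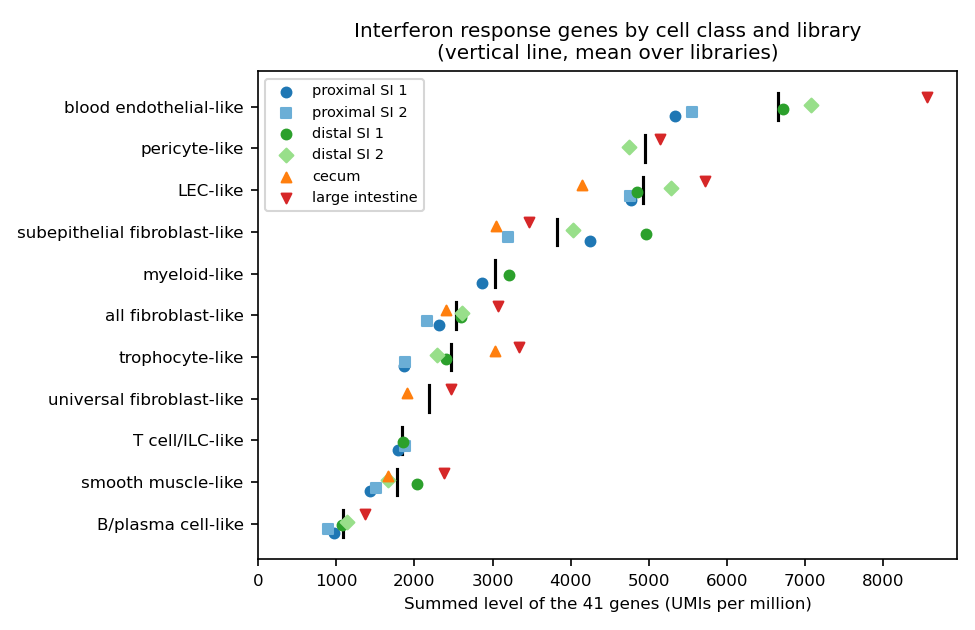
Summed level of the 41 interferon response genes (x axis, CPM) in each cell class (rows), with 1 point per library and a vertical line at the mean over libraries. In each of the 6 libraries the LEC-like point, 4142 to 5723, lies to the right of every point for all fibroblast-like cells, 2162 to 3073. The subepithelial fibroblast-like points, 3042 to 4968, overlap the LEC-like ones.

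One gene carried much of the sum. Iigp1, an interferon-inducible GTPase that attacks the vacuoles of intracellular pathogens, gave 42.7% to 43.3% of the members' UMIs in pericyte-like cells, 27.9% to 31.7% in blood endothelial-like cells, 23.1% to 26.1% in fibroblast-like cells and 13.2% to 19.8% in LEC-like cells. Without Iigp1 the means were 4675 in blood endothelial-like, 4134 in LEC-like, 2821 in pericyte-like and 1908 CPM in fibroblast-like cells, so pericyte-like cells then lay near subepithelial fibroblast-like cells at 2767.

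Over the classes measured in at least 2 libraries, fibroblast kinds aside, 16 of the 41 genes had their highest mean in blood endothelial-like cells, 13 in LEC-like, 6 in myeloid-like, 5 in pericyte-like and 1 (Nlrc5, the activator of MHC class I genes) in T cell/ILC-like cells. The blood endothelial set included Irf1, Gbp5, Parp14, Trim30a and Oasl2, and the LEC set Isg15, Rsad2, Ifi44, Zbp1, Bst2 and Gbp2. The myeloid set was Oasl1, Oas1a, Mx1, Dhx58, Psmb8 and Psmb9. Psmb8 (196.7 ± 54.4 against 194 ± 41.9 CPM) and Psmb9 (222 ± 20.2 against 206 ± 35.7) were within the spread of LEC-like cells, and the means rest on different libraries, so close ranks are not distinguished. No member led in fibroblast-like or smooth muscle-like cells. The class of the highest mean was not counted over all genes.

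**Figure D2:**
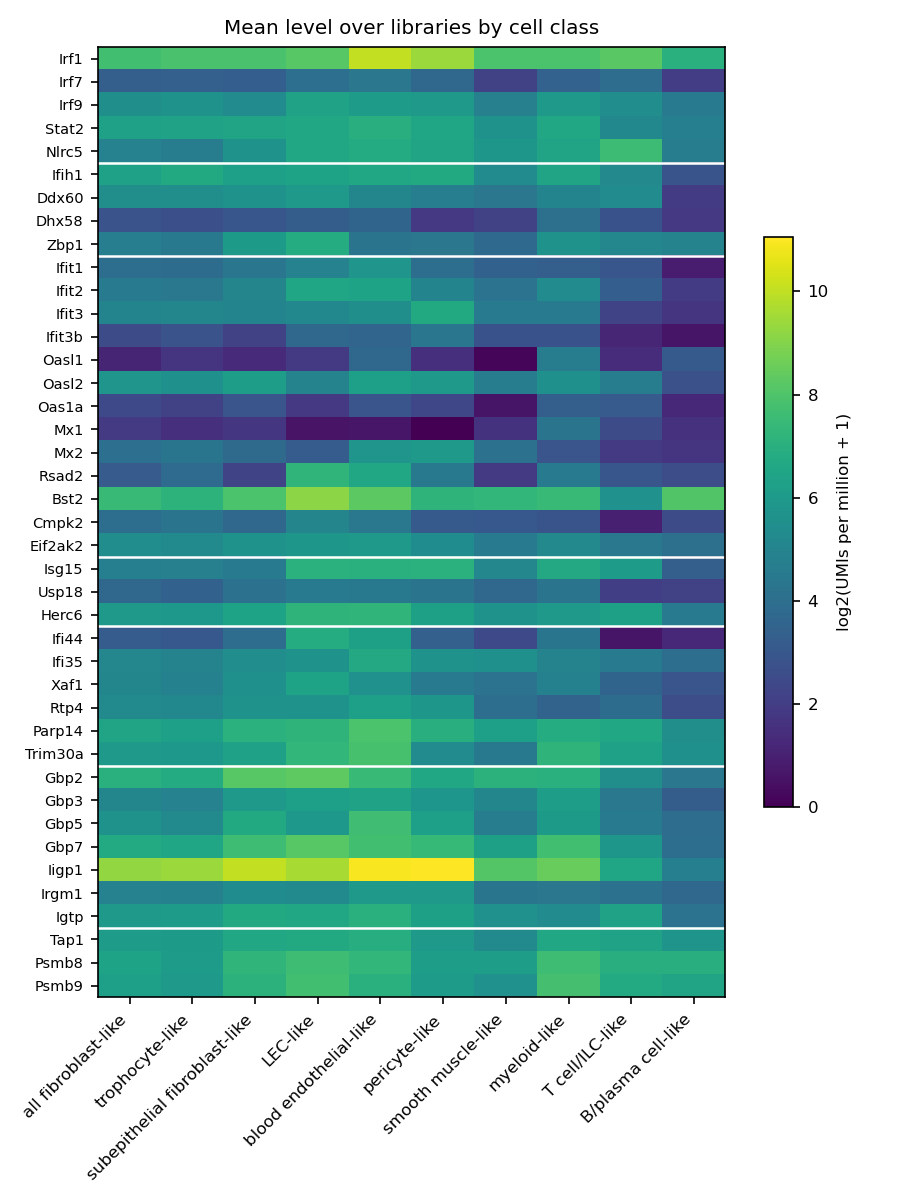
Mean level over libraries of each member (rows, grouped by role as in the text, white lines between groups) in 10 cell classes (columns), coloured by log2(CPM + 1). Iigp1 is the brightest row in the stromal classes, and Rsad2, Ifi44 and Isg15 are bright in both endothelial classes and dark in fibroblast-like cells.

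LEC-like cells carried more of nearly every member than fibroblast-like cells of the same library. With edgeR's quasi-likelihood test on sums per library, library as a block, 35 of the 41 genes were higher in LEC-like cells and 4 lower at an adjusted p of 0.05, where 67.8% of all 17812 genes tested were called (31.7% higher, 36.1% lower). The median log2 fold change was 0.91 over the members and -0.05 over all genes. All 5 regulators, all 3 genes of ISG15 conjugation, all 6 other induced genes, all 7 GTPases and all 3 antigen processing genes were higher, as were 3 of the 4 sensors and 8 of the 13 antiviral effectors.

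Rsad2 encodes viperin, which makes a chain-terminating nucleotide that stops viral polymerases. Its LEC-like level was 223 and 219.8 CPM in the proximal small intestine, 134 and 166 in the distal, 105 in cecum and 40.3 in large intestine, against 5.32 to 13.6 in fibroblast-like cells. The groups did not overlap, and the fitted log2 fold change was 4.15 ± 0.40 (SE, adjusted p = 2.68e-05, higher in 6 of 6 libraries). Free RNA held Rsad2 at 10.7 to 52.6 CPM, above its fibroblast-like level in each of the 6 libraries, so background may make up part of that level. How large this part is was not tested. In each library free RNA was above the fibroblast-like level for 17 of the 41 genes, among them Isg15 (29 to 54.5 CPM in free RNA), Ifi44 (4.43 to 35.2) and Zbp1 (30.0 to 61.2). Background may make up part of these fibroblast-like levels as well. With free RNA subtracted at 10% of the UMIs of each sum, the 41 genes summed to 2500 ± 339 CPM in fibroblast-like cells, against 2526 ± 318 before (SD, n = 6).

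Ifi44, a further interferon-induced gene, stood at 96.9 to 130.5 CPM in LEC-like and 3.77 to 12.1 in fibroblast-like cells, a log2 fold change of 3.88 ± 0.20 (adjusted p = 5.86e-07). For Isg15, the ubiquitin-like modifier, the LEC-like values were 120.3, 120.8, 139.5, 123.5, 160.4 and 132 CPM in the order proximal 1, proximal 2, distal 1, distal 2, cecum and large intestine, and the fibroblast-like values 22.6, 17.0, 32.4, 26, 35.4 and 26.2. Every LEC-like value was above every fibroblast-like one, and the log2 fold change was 2.38 ± 0.12 (adjusted p = 4.91e-07). Zbp1, a sensor of Z-form nucleic acid that can trigger necroptosis, followed with 115 ± 28.7 against 25.7 ± 5.14 CPM (SD, n = 6) and a log2 fold change of 2.18 ± 0.11.

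Among the next largest changes were Ifit2 at 2.03 ± 0.27, Nlrc5 at 1.82 ± 0.10 and Bst2, or tetherin, which holds budding virions at the cell surface, at 1.75 ± 0.11. Bst2 ran from 439 to 671 CPM in LEC-like and from 120.0 to 265 in fibroblast-like cells. Oasl1 (1.53 ± 0.40), Psmb9 (1.5 ± 0.11), a subunit of the immunoproteasome, and Ifit3b (1.49 ± 0.30) complete the 10 largest increases, with Oasl1 at a mean of only 2.64 CPM.

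The 4 genes that were lower in LEC-like cells were the oligoadenylate synthetase family genes Oasl2 and Oas1a and the dynamin-like GTPases Mx1 and Mx2. Oasl2 ran from 22.6 to 36.1 CPM in LEC-like and from 41.5 to 58.5 in fibroblast-like cells, with no overlap and a log2 fold change of -0.79 ± 0.09 (adjusted p = 5.63e-05). Mx2 changed by -0.92 ± 0.19, Oas1a by -0.86 ± 0.18 and Mx1, at 0.52 against 2.66 CPM, by -1.62 ± 0.36. Ifit3 and Ifih1 (MDA5, a sensor of long double-stranded RNA) did not pass, with 35.0 ± 7.92 against 30.9 ± 11.1 and 83.1 ± 20.0 against 80.2 ± 18.6 CPM.

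**Figure D3:**
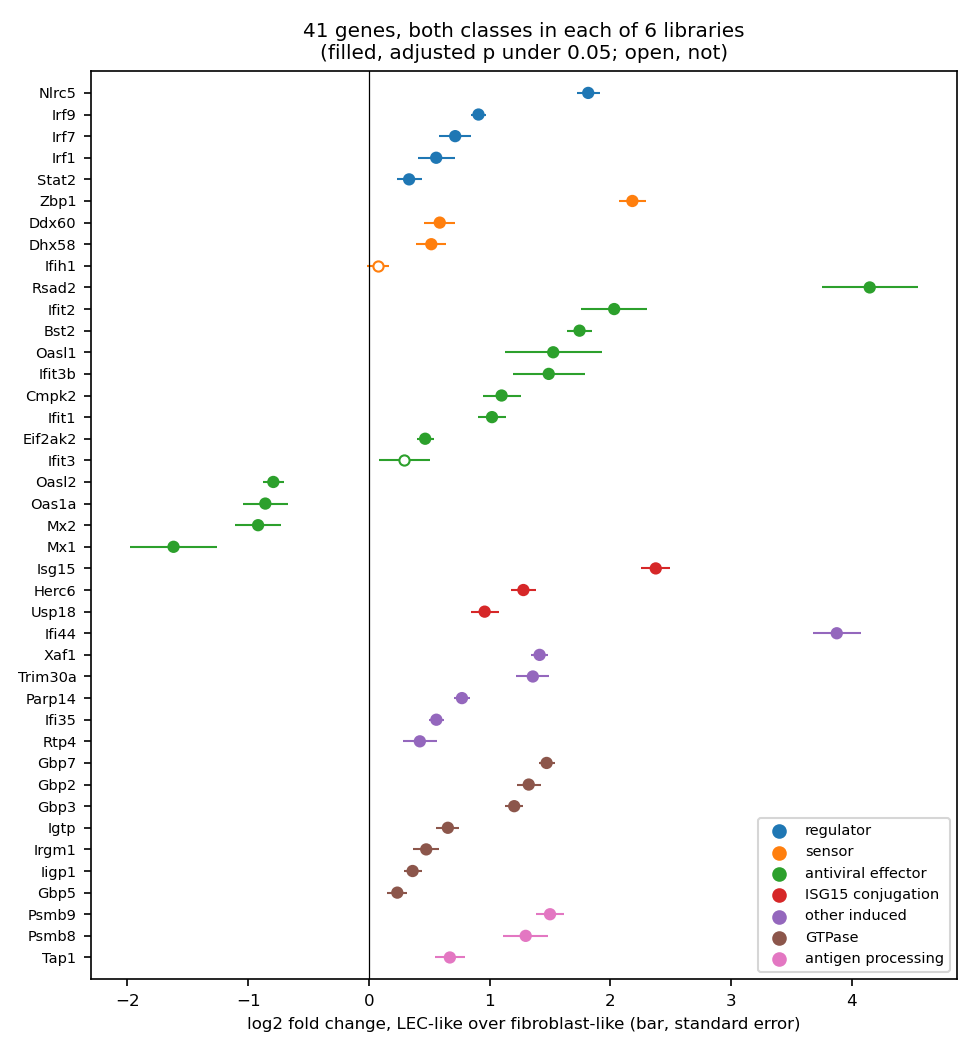
Fitted log2 fold change of LEC-like over fibroblast-like cells (x axis, bar for the standard error) for each of the 41 genes, coloured by role. Filled points passed an adjusted p of 0.05, open points (Ifih1, Ifit3) did not, and the 4 points left of 0 are Oasl2, Oas1a, Mx2 and Mx1.

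The size of the contrast depended on the kind of fibroblast. Against subepithelial fibroblast-like cells alone, a comparison added after the values were seen, 25 of the 41 genes were higher in LEC-like cells and 4 lower (63.5% of all genes called, 29.2% higher and 34.3% lower), with a median log2 fold change of 0.51. Of the 7 GTPases 2 were higher and 1 was lower, Gbp5 at -0.67 (adjusted p = 0.0167). Iigp1 had -0.32 (adjusted p = 0.11) in that comparison. Against trophocyte-like cells 32 were higher and 4 lower (70.6% of all genes called, 31% higher and 39.6% lower).

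Between blood endothelial-like and LEC-like cells the share of members called was close to that of all genes. In the 5 libraries with at least 50 cells of both, 17 of the 40 members tested were higher in blood endothelial-like cells and 9 lower, where 57.4% of all genes were called (29.1% higher, 28.4% lower), and the median log2 fold change was 0.16 over the members and -0.02 over all genes. Mx1 was removed by the filter on low counts.

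Irf1, an interferon gamma-responsive transcription factor, was measured at 892, 989.9, 1243.5, 1156 and 918 CPM in blood endothelial-like cells of the 2 proximal, the 2 distal and the large intestinal libraries, against 248 to 375 in LEC-like cells. The groups lay far apart, and the log2 fold change was 1.97 ± 0.11 (adjusted p = 4.34e-07). A sum of 10 immediate early and heat shock genes (Fos, Fosb, Jun, Junb, Egr1, Atf3, Ier2, Ier3, Hspa1a, Hspa1b), which tissue digestion is known to raise, was 11459 to 17200 CPM in blood endothelial-like and 5837 to 11362 in LEC-like cells of these libraries, and its part in the Irf1 result was not tested.

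Of the GTPases, Gbp5 (1.78 ± 0.12) and Iigp1 (1.44 ± 0.09) were higher in blood endothelial-like cells, with Iigp1 at 1974 ± 376 against 791 ± 202 CPM. Mx2 (2.59 ± 0.38), Oasl1 (1.90 ± 0.30), Oas1a (1.42 ± 0.34) and Oasl2 (1.32 ± 0.11) were also higher, as was Ifi35 (1.21 ± 0.08). Mx2 stood at 53.8 ± 34.9 CPM in blood endothelial-like and 6.95 ± 1.78 in LEC-like cells. Both this comparison and the one with fibroblast-like cells use the same LEC-like sums.

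Zbp1 went the other way. It was at 6.86 to 14.5 CPM in blood endothelial-like cells of the 4 small intestinal libraries and at 49.6 in those of the large intestine, against 122.9 ± 24.5 in LEC-like cells. The groups did not overlap, with a log2 fold change of -2.92 ± 0.28 (adjusted p = 2.1e-05). Ddx60, a helicase cofactor of RNA sensing, changed by -0.97 ± 0.12, Gbp2 by -0.93 ± 0.18, Xaf1, a proapoptotic factor, by -0.82 ± 0.13 and Bst2 by -0.78 ± 0.14. Rsad2 (96.9 ± 47.7 against 157 ± 75.1 CPM) and Isg15 (130.2 ± 38.6 against 127 ± 8.35) did not pass.

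At the minimum of 50 cells, myeloid-like cells could be compared with fibroblast-like cells in only 2 libraries, proximal 1 and distal 1, with 73 and 79 cells. There 14 of the 41 genes were higher in myeloid-like cells and 5 lower (36.6% of all genes called, 16% higher and 20.6% lower). The immunoproteasome subunits Psmb9 (1.52 ± 0.19) and Psmb8 (1.43 ± 0.19), Nlrc5 (1.68 ± 0.22) and Isg15 (1.76 ± 0.21) were higher. The largest increases were those of Oasl1, at 4.31 ± 0.64 with 24.4 against 1.22 CPM, and Mx1, at 2.66 ± 0.57 with 18.3 against 2.71. Rtp4 (-2.07 ± 0.34), Mx2 (-1.53 ± 0.47), Cmpk2 (-1.28 ± 0.50), Ddx60 (-0.89 ± 0.25) and Iigp1 (-0.88 ± 0.21) were lower. limma-voom called 7 of these 41 genes and cells thinned to 2500 UMIs 11, so the count depended on the setting. The shares of all genes called under these settings are not given here. A general loss of calls is therefore not told from a loss among the members. With a minimum of 30 cells, which gave 4 small intestinal libraries and was added after the values were seen, all 19 kept their direction and call.

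Within fibroblasts of the small intestine, subepithelial cells held more GTPase and antigen processing transcripts than trophocyte-like cells. The first are the telocyte-type cells beneath the epithelium, the second the Grem1-expressing cells around the crypts. In the 4 small intestinal libraries 25 of the 41 genes were higher in subepithelial fibroblast-like cells and 6 lower (54.6% of all genes called, 25.8% higher and 28.8% lower), with a median log2 fold change of 0.47 over the members and -0.02 over all genes. All 7 GTPases and all 3 antigen processing genes were higher. With all 6 libraries, an alternative added after the values were seen, 22 of the called genes kept their call and 9 kept the direction only.

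Zbp1 had the largest increase, a log2 fold change of 1.97 ± 0.05 (adjusted p = 8.99e-07). It stood at 68.4, 56.6, 94.9 and 72.1 CPM in subepithelial and at 13.7, 12.0, 19.7 and 16.6 in trophocyte-like cells of proximal 1, proximal 2, distal 1 and distal 2. Gbp2, a guanylate-binding protein that coats pathogen membranes, followed at 363 ± 99.3 against 82.3 ± 9.15 CPM and a log2 fold change of 1.84 ± 0.11, and in both genes every subepithelial value was above every trophocyte-like one. Gbp5 (1.48 ± 0.13), Oasl1 (1.42 ± 0.28), Gbp7 (1.17 ± 0.08), Nlrc5 (1.16 ± 0.07), Gbp3 (1.15 ± 0.07), Psmb9 (1.06 ± 0.09), Psmb8 (1.04 ± 0.07) and Ifi44 (1.02 ± 0.19) complete the 10 largest increases.

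The 6 genes lower in subepithelial cells included Rsad2 (-1.32 ± 0.22), Isg15 (-0.52 ± 0.15), Mx2 (-0.79 ± 0.21) and Cmpk2 (-0.50 ± 0.08), so these genes moved opposite to the GTPases. The immediate early and heat shock sum was 827 to 2723 CPM in subepithelial and 7903 to 10244 in trophocyte-like cells of these libraries, and its part in these differences was not tested.

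Between gut regions, which members were called depended on the class of cell. The share of members called was below that of all genes in fibroblast-like, LEC-like and subepithelial fibroblast-like cells. It was above that of all genes in trophocyte-like cells only. In fibroblast-like cells 4 of the 41 genes were higher in the 2 large bowel libraries (cecum and large intestine) than in the 4 small intestinal ones and 4 were lower, where 30.3% of all genes were called (16% higher, 14.4% lower), and the median log2 fold change was 0.10 over the members and -0.01 over all genes. Psmb8 (0.93 ± 0.26), Bst2 (0.77 ± 0.19), Tap1, which pumps peptides to MHC class I (0.65 ± 0.19), and Ifi35 (0.47 ± 0.14) were higher. Ddx60 (-1.15 ± 0.12), Trim30a (-0.78 ± 0.16), Ifih1 (-0.59 ± 0.12) and Herc6, the mouse ISG15 ligase (-0.55 ± 0.16), were lower. In trophocyte-like cells alone the change turned direction for Ifih1, at 0.56, and was 0.0037 for Herc6. In subepithelial cells alone none of the 4 increases passed, with Psmb8 at 0.53 ± 0.30, Bst2 at 0.54 ± 0.21, Tap1 at 0.41 ± 0.20 and Ifi35 at 0.40 ± 0.16, and in trophocyte-like cells Psmb8 and Tap1 did.

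Ddx60 was at 55.4, 49.6, 50.6 and 56.9 CPM in fibroblast-like cells of the 4 small intestinal libraries, at 21.0 in cecum and at 25.5 in large intestine, and the groups did not overlap (adjusted p = 0.00173). Psmb8 was at 55.3, 63.7, 80.9 and 63.2 in the small intestine, at 83.6 in cecum and at 163 in large intestine, so its higher mean came mostly from 1 library. Irf1 was at 343 CPM in the cecum and at 154 to 191 in the other 5 libraries, and the cecum also had the highest immediate early and heat shock sum in fibroblast-like cells, 22041 against 5511 to 8553. The number of members called was 8 without the cecum as well.

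This regional count rested on single libraries. It was 4 without proximal 1, without proximal 2 or without distal 2, and between the 4 libraries that carried the first set of hashtags it was 1, Ddx60. The shares of all genes called in these smaller fits are not given here. A general loss of calls is therefore not told from a loss among the members. A fibroblast-like sum also mixes kinds whose shares differ by region, with 332 to 939 subepithelial and 4835 to 11270 trophocyte-like cells per small intestinal library against 2165 and 4658 subepithelial and 333 and 536 trophocyte-like cells in cecum and large intestine.

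Taken by kind, a step added after the values were seen, the large bowel differed from the small intestine in unlike ways. In trophocyte-like cells 11 of the 41 genes were higher in the large bowel and 1, Ddx60, was lower (16.1% of all genes called, 8.17% higher and 7.97% lower). The median log2 fold change over the 41 genes was 0.53, against -0.09 over all genes. In subepithelial fibroblast-like cells 3 were higher and 8 lower (36.8% of all genes called, 20.2% higher and 16.6% lower), with a median of -0.08 against 0.01. The counts fell to 6 in trophocyte-like and 7 in subepithelial cells without the cecum. They were 7 in trophocyte-like cells without proximal 1 and 7 in subepithelial cells without distal 2. The immediate early and heat shock sum was 28034 in cecal and 13203 in large intestinal trophocyte-like cells, against 7903 to 10244 in those of the small intestine, and 12505 and 6761 against 827 to 2723 CPM in subepithelial cells, and its part in these regional differences was not tested. A kind gated by markers may hold different cells in each region. In trophocyte-like cells Dkk2, one of the 4 markers, was at 586 to 1035 CPM in the small intestine and at 28.0 and 17.7 in cecum and large intestine, and in subepithelial cells Procr was at 57.2 to 79.5 against 219 and 443. A change within a cell type and a change in which cells make up a kind cannot be told apart here.

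Gbp2 showed opposite directions in the 2 kinds. In trophocyte-like cells it was at 77, 75.2, 95.4 and 81.4 CPM in the small intestine, 146 in cecum and 180.3 in large intestine, a log2 fold change of 1.07 ± 0.16 (adjusted p = 0.00377). In subepithelial cells it was at 426, 271, 468 and 285 in the small intestine, 105 in cecum and 204 in large intestine, a log2 fold change of -1.08 ± 0.34 (adjusted p = 0.0393). No large bowel library overlapped the small intestinal ones in either kind. The cecal trophocyte-like level differed by hashtag, however, at 235 CPM with hashtag 1 (168 cells) and 71.3 with hashtag 2 (67 cells), and the second lies below every small intestinal library. Fewer than 50 cells were called for hashtag 3, and cells without a clear leading hashtag were left out. In the large intestine the 3 hashtags were at 179 to 211.

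In 1 fit over both kinds with library as a block, the effect of region differed between trophocyte-like and subepithelial cells for 17 of the 41 genes, against 11.2% of all genes, and was more positive in trophocyte-like cells for 16 of them. Gbp2 differed by 2.20 ± 0.24, Zbp1 by 1.76 ± 0.15 (adjusted p = 0.00066), Ifih1 by 1.44 ± 0.14 and Nlrc5 by 1.33 ± 0.13. The count was 9 without proximal 1 and 12 to 14 without any other library. Between the 4 libraries of the first hashtag set it was 11, with 6 members called in trophocyte-like and 7 in subepithelial cells. For these 4 libraries the shares of all genes called are not given here. Igtp (116 ± 49.7 against 42.3 ± 5.73 CPM) and Iigp1 (983 ± 238 against 506 ± 77.6) were both higher in large bowel trophocyte-like cells, by 1.56 ± 0.23 and 1.04 ± 0.21 on the log2 scale. In cecal trophocyte-like cells Mx1, a gene at only 0.177 to 3.36 CPM in trophocyte-like sums, was lower with hashtag 1 than with hashtag 2. Of the 17 genes, 16 were over 1.5 times as high with hashtag 1. The values were 43.1 against 14.3 CPM for Zbp1, 152 against 44.5 for Ifih1, 39.5 against 21.4 for Nlrc5, 134 against 19.6 for Igtp and 1258 against 682 for Iigp1. These levels by hashtag were not tested, and the count was not made over all genes. The 17 genes were called with sums that hold these same cells. Igtp overlaps Irgm2 on the same strand, so reads of these 2 genes may not be told apart.

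**Figure D4:**
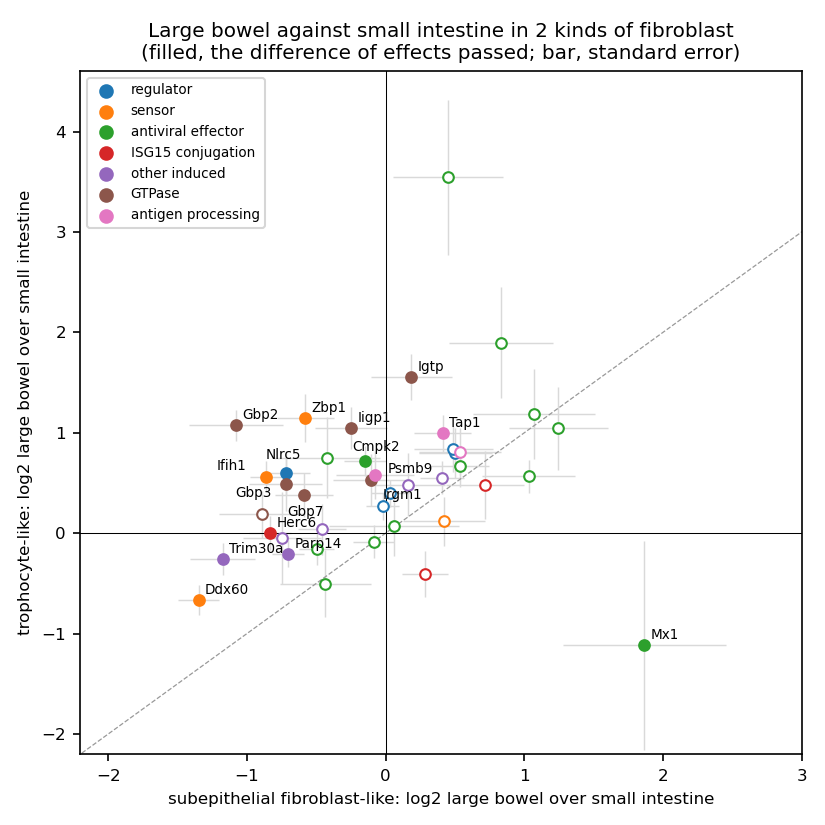
Log2 fold change of large bowel over small intestine in subepithelial fibroblast-like (x axis) and trophocyte-like cells (y axis) for each of the 41 genes, with bars for the standard errors, colours for roles and the line of equal effect dashed. Of the 17 filled and named genes, whose 2 effects differed at an adjusted p of 0.05, 16 lie above the dashed line and Mx1 below it. Mx1 was low, at 0.177 to 3.36 CPM in trophocyte-like sums.

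In LEC-like cells 1 of the 40 members tested was higher in the large bowel and 5 lower (20.2% of all genes called, 9.38% higher and 10.8% lower), with medians of -0.06 over the members and -0.02 over all genes. Irf7, the master factor of type I interferon induction, was higher by 0.82 ± 0.22 (adjusted p = 0.0268). Rsad2, whose values are given above, was lower (-1.45 ± 0.36, adjusted p = 0.0215), and Trim30a (-0.94 ± 0.19), Cmpk2, a nucleotide kinase gene next to Rsad2 (-0.87 ± 0.21), Herc6 (-0.77 ± 0.22) and Ifit2 (-0.69 ± 0.20) were lower as well. The immediate early and heat shock sum in LEC-like cells was 16466 CPM in cecum, 6207 in large intestine and 5837 to 11362 in the small intestine, and its part here was not tested. The large bowel libraries held 225 and 248 LEC-like cells against 796 to 6138. The count of members called was 3 without proximal 1, 10 without distal 1, and 3 within the first set of hashtags (Irf7, Rsad2 and Trim30a). The shares of all genes called in these fits are not given here. A general change in calls is therefore not told from a change among the members.

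The effect of region differed between LEC-like and fibroblast-like cells for 6 of the 41 genes, a count not far above the 9.58% of all genes. All 6 were more negative in LEC-like cells, and directions were not counted over all genes. They were Rsad2 (-1.97 ± 0.32), Ifit2 (-1.36 ± 0.33), Psmb8 (-1.03 ± 0.13, adjusted p = 0.00264), Cmpk2, Tap1 and Psmb9. The count was 2 without the large intestine, 3 without the cecum, 3 without proximal 2 and 3 without distal 2.

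Within the small intestine no member was called between distal and proximal libraries in the fit without a replicate block. In fibroblast-like cells edgeR called 0 of the 41 genes (0.0104% of all genes, 0.00521% in each direction), limma-voom and DESeq2 also 0, and 3 had an unadjusted p under 0.05. The median log2 fold change was 0.23 over the members and 0.01 over all genes. In LEC-like cells 0 of 41 were called by any of the 3 tools (0% of all genes), 1 had an unadjusted p under 0.05, and the medians were 0.01 and 0.01. With the replicate number as a block, Rsad2 was called in LEC-like cells (-0.59, edgeR adjusted p under 0.05). With 2 libraries a side, differences between these regions may have gone undetected.

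The genes around the program were sparse on the side of the ligands. Over the 765220974 UMIs of all gated classes there were 109 UMIs of Ifng, 75 of Ifnk, 23 of Ifnb1 and 1 of Ifna2, and none of Ifna4, Ifne, Ifnl2 or Ifnl3, where a count of 0 still allows 3. Of the receptors, Ifnar2 was at 241 ± 17.9 CPM in LEC-like and 171 ± 15.3 in fibroblast-like cells (log2 fold change 0.52 ± 0.07) and Ifngr1 at 179.6 ± 28.8 against 276 ± 21.9 (-0.60 ± 0.11). Ifnlr1, the type III receptor chain, was at 0.0084 against 0.63 CPM.

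Of a list of 41 further genes of the pathway (ligands, receptors, kinases, sensors, MHC class I and other induced genes), 33 were tested between LEC-like and fibroblast-like cells, of which 20 were higher in LEC-like cells and 7 lower (31.7% and 36.1% of all genes). The RNA sensor Tlr3 (1.63 ± 0.09) and the DNA sensing adaptor Sting1 (1.52 ± 0.09) were higher, as was Cd274, which encodes PD-L1, at 59.2 ± 15.9 against 12.2 ± 3.10 CPM. The chemokine genes Cxcl9 (-1.71 ± 0.23) and Cxcl10 (-1.40 ± 0.25), which are also interferon-induced, were lower in LEC-like cells. Against trophocyte-like cells alone Cxcl9 was at 0.32 ± 0.47 and did not pass (adjusted p = 0.562 by edgeR), against -3.30 ± 0.37 relative to subepithelial cells, while Cxcl10 was lower than in either kind.

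Cells of 1 class differed widely in their members. When each cell was thinned to 2500 UMIs, fibroblast-like cells held a mean of 5.32 to 7.56 UMIs of the 41 genes and LEC-like cells 11.0 to 14.2, over the 6 libraries. The 5% of fibroblast-like cells with the most carried 20.2% to 23.6% of the members' UMIs, and the 5% of LEC-like cells 13.3% to 20.3%. In fibroblast-like cells 2.75% to 5.32% held none, against at most 0.403% of LEC-like cells. Fibroblast-like cells also had the lower mean, which by itself leaves more cells with none.

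**Figure D5:**
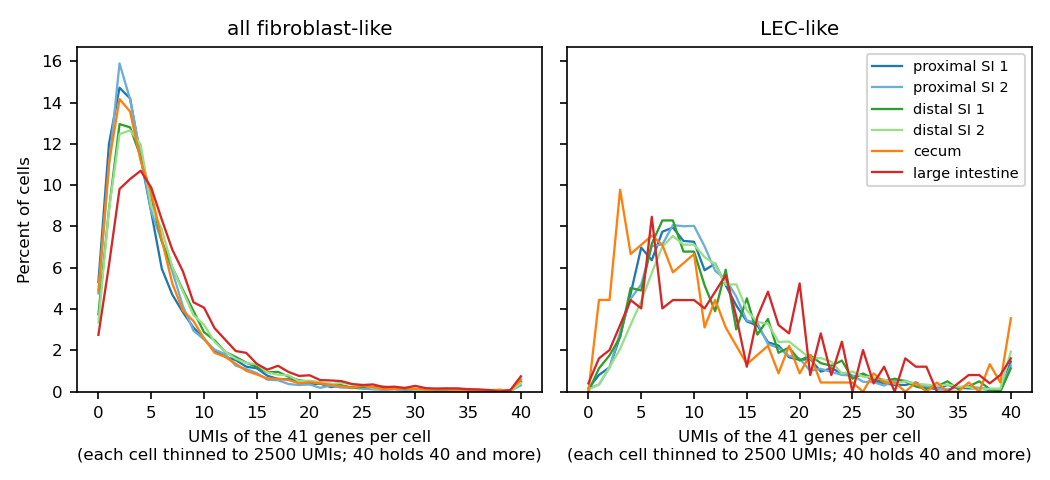
Percent of cells (y axis) by number of UMIs of the 41 genes (x axis) after thinning each cell to 2500 UMIs, 1 line per library, with 40 and more in the last point. Fibroblast-like cells peak at 2 to 4 UMIs and LEC-like cells at 6 to 8, except in the cecum, where the LEC-like cells peak at 3, and both have a long right tail.

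The variance over the mean across cells, which is 1 for Poisson counts, had a median of 1.18 to 1.23 over the members and 1.04 to 1.05 over all genes measured in fibroblast-like cells, and of 1.14 to 1.29 against 0.991 to 1.06 in LEC-like cells. This ratio grows with a gene's level, and genes were not matched by level. The fibroblast-like class also pools kinds with unlike levels. The median over the members was 1.104 to 1.179 within subepithelial cells, against 1.013 to 1.042 over all genes. Within trophocyte-like cells it was 1.105 to 1.326, against 1.008 to 1.042. Iigp1 had the highest mean ratio in both classes, at 5.28 to 8.15 in fibroblast-like and 3.97 to 9.61 in LEC-like cells. Isg15 had 1.62 to 1.98 and 1.43 to 3.41, while Bst2, although abundant, had 1.22 to 1.42 and 1.34 to 1.64.

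Cells could also be grouped by hashtag within a library. Only cells with 1 clear leading hashtag were counted, 58.8% to 93.5% of cells per library. In fibroblast-like cells of proximal 1 the 3 hashtags were at 2348 to 3151 CPM, all above the 2313 CPM of the whole class. Cells called for a hashtag therefore do not stand for the whole class, and whether the call selects by level was not tested. The highest over the lowest of the 3 hashtags was 1.15 to 1.34 for the summed level in fibroblast-like cells of the 6 libraries, and 1.05 to 1.31 in LEC-like cells outside the cecum. In both second-replicate libraries the lowest sum was that of hashtag 5 in fibroblast-like, LEC-like, trophocyte-like and subepithelial cells alike. In the cecum the ratio was 1.96 in LEC-like cells. These cells were at 5963 CPM with hashtag 1 (85 cells) and at 3455 and 3038 with hashtags 2 and 3 (76 and 60 cells). Of the 41 genes, 31 were highest with hashtag 1, and the share over all genes was not counted. Iigp1 was at 1444 against 455 and 437 CPM, and Rsad2 at 242 against 32.04 and 39.0. The cecal level of Rsad2 in LEC-like cells given above was thus highest in the cells of 1 hashtag. Levels by hashtag are a description and were not tested. Cecal trophocyte-like cells were at 4165 CPM with hashtag 1 (168 cells) and 2179 with hashtag 2 (67 cells), and a further fibroblast kind, gated as universal fibroblast-like, was at 2844 against 1891 and 1747. Over all cecal fibroblast-like cells hashtag 1 was at 2723 against 2404 and 2363. In cecal subepithelial cells hashtag 1 was the lowest of the 3, at 2907 against 3078 and 3087.

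Over 35 sums of a class in a library, the genes whose levels ranked most like Isg15 were Rab5c (Spearman 0.911), Naa12 (0.88), Pim3 (0.874), Tpm3 (0.864) and Ubtd1 (0.85), out of 19146 genes. None is a member, and the sums share libraries and differ in depth.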

How the data were processed

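The authors counted UMIs with Cell Ranger (8.1.0 per the submitters' processing notes) against mm39 extended by the tdTomato sequence, and deposited the raw counts per gene and barcode, before any removal of doublets or free RNA. The study's limits on cells were applied (genes from 1000 to 7500, a total of 2500 to 40000 and a mitochondrial share below 10%). Its further removal of clusters with few tdTomato-positive cells was not applied, so classes the study discarded may remain here. Doublets called with Scrublet in scanpy 1.11.5 (4.91% to 11.4% per library) were removed. A cell entered a class when it expressed at least a set number of that class's markers (5 of 7 for fibroblast, 5 of 6 for LEC, fewer for the others). It had to pass none of the other classes, the fibroblast class aside. Outside the fibroblast class, the summed share of Pdgfra, Dcn, Lum and Dpt also had to lie below 25% of a fibroblast median. Fibroblast kinds were gated within fibroblast-like cells. Barcodes with at most 100 UMIs, taken as free RNA, held 2.9% to 3.82% of the UMIs of all barcodes. The share of free RNA within cells was not estimated. Libraries shared at most 0.61% of cell barcodes.

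Counts were summed per library and class of at least 50 cells and tested with edgeR 4.0.16 (quasi-likelihood, TMM, filterByExpr with a minimum count of 10, R 4.3.3), with library as a block where 2 classes were compared. p-values were adjusted by Benjamini-Hochberg over all genes tested, with a threshold of 0.05, and the standard error is the absolute log2 fold change over the square root of F. Alternatives were limma-voom (limma 3.58.1), DESeq2 1.42.0, no filter on low counts, free RNA subtracted, no doublet removal, a stricter gate, thinned cells, the block, and each library left out. The alternatives by fibroblast kind, hashtag set and number of libraries, the tests of a difference between 2 regional effects and the list of immediate early and heat shock genes were chosen after the data were seen. The members and gene lists were chosen with earlier results of these data known. Per comparison, up to 10 called members with the largest change in each direction were named, and up to 5 of those not called.

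For the spread between cells, each cell was thinned to 2500 UMIs. Members were compared with RefSeq promoter windows of GRCm38.p6 by symbol, and 9 members had no match there. The coordinates of these windows are those of GRCm38.p6, while the counts were made on mm39. Not every gene of the pathway list is reported here by name.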

Additional observations from a re-analysis of the deposited data

Results flagged for a closer look

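The effect of the large bowel, on the log2 scale, differed between LEC-like and fibroblast-like cells for 6 of the 41 genes, against 9.58% of all genes. The count is not far above that share, and directions were not counted over all genes. The test was of the difference itself (edgeR, chosen after seeing the data). The differences, LEC-like minus fibroblast-like, were -1.97 for Rsad2, -1.36 for Ifit2, -1.03 for Psmb8, -0.86 for Cmpk2, -0.68 for Tap1 and -0.55 for Psmb9.

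The same effect differed between trophocyte-like and subepithelial fibroblast-like cells for 17 of the 41 genes, against 11.2% of all genes. It is given here as trophocyte-like minus subepithelial. Among the GTPases the difference was 2.20 for Gbp2, 1.34 for Igtp, 1.27 for Iigp1, 1.19 for Gbp3, 0.94 for Gbp7 and 0.61 for Irgm1. The sensors Zbp1, Ifih1 and Ddx60 differed by 1.76, 1.44 and 0.745. Nlrc5 differed by 1.33, Psmb9 by 0.66 and Tap1 by 0.58, all of which serve MHC class I presentation. For Trim30a, Cmpk2, Herc6 and Parp14 it was 1.04, 0.88, 0.84 and 0.53. Mx1 alone went the other way, at -2.48, from low levels of 0.177 to 3.36 CPM in trophocyte-like and 1.05 to 7.33 in subepithelial sums. The cecal trophocyte-like levels behind these values differed by hashtag, with 16 of the 17 genes over 1.5 times as high with hashtag 1 as with hashtag 2 and Mx1 lower. That count was not made over all genes. The 17 genes were called with sums that hold these same cells, so the count is not separate support for them.

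Among the 4 small intestinal libraries, 8 of 84 sets of values (the 41 genes and their sum, in LEC-like and in fibroblast-like cells) held 1 library far from the others, where chance gives about 1 in 20. In fibroblast-like cells of distal 2, Ifih1 was at 105.2 CPM (85.0 to 88.2 in the others), Nlrc5 at 37.1 (25.3 to 26.9) and Eif2ak2 at 49.1 (39.6 to 41.02). Oasl1 was at 1.70 in proximal 1 (0.582 to 0.748) and Oasl2 at 50.9 in proximal 2 (57.3 to 58.5). In LEC-like cells Isg15 was at 139.5 in distal 1 (120.3 to 123.5), Irf9 at 74.2 in proximal 2 (81.4 to 82.9) and Tap1 at 109.8 in distal 2 (100.6 to 101.4).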

How the results depend on the processing

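Over all alternatives, 1531 of 1741 values of called members kept their direction and their side of the threshold, 204 kept the direction only and 6 turned, and of 2528 values of members not called 2231 stayed the same in direction and call, 75 passed the threshold in the same direction, 220 changed sign without passing and 2 turned past it. With subepithelial cells as the only fibroblasts, LEC-like over fibroblast-like was -0.67 for Gbp5, -0.32 for Iigp1 and -0.018 for Igtp, and large bowel over small intestine was -1.08 for Gbp2 and -0.72 for Nlrc5. With trophocyte-like cells only, the regional change was 0.56 for Ifih1 and 0.0037 for Herc6. Under the stricter gate Ifit1 was at -0.040 in subepithelial over trophocyte-like cells. Of the counts of called members, myeloid-like over fibroblast-like gave 7 with limma-voom and 11 with thinned cells. Large bowel over small intestine within the first hashtag set gave 1 in fibroblast-like, 3 in LEC-like, 6 in trophocyte-like and 7 in subepithelial cells, and 11 genes whose regional effect differed between the last 2. Without thinning, the median variance over mean was 1.96 in fibroblast-like and 1.88 in LEC-like cells. The hashtag set held fewer libraries, and the cause of these changes was not tested. The share of all genes called is given for the main fits and those by fibroblast kind, not for the other alternatives.

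With 1 library left out, the regional counts ran from 4 to 10 in fibroblast-like, 2 to 10 in LEC-like, 7 to 13 in subepithelial and 6 to 17 in trophocyte-like cells, and the counts of genes whose regional effect differed from 2 to 8 (LEC-like against fibroblast-like) and from 9 to 14 (trophocyte-like against subepithelial). Where that left 1 large bowel library, it was assumed to vary like the others. LEC-like over fibroblast-like gave 31 to 39.

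The replicate number as a block called 0 members between distal and proximal fibroblast-like cells and 1, Rsad2 (-0.59), between LEC-like cells. Deviations of same-numbered libraries correlated at 0.363 and 0.206, but there were only 2 pairs. Same-numbered libraries also share a set of hashtags, and the labels used here tie neither to a shared animal.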

Other observations

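Of the JAK and SOCS genes, which drive and restrain the pathway, Socs3 (log2 fold change 2.90), Socs1 (2.03), Jak2 (1.57) and Jak1 (0.86) were higher in blood endothelial-like than in LEC-like cells, and Tyk2 (-0.35) was lower (edgeR, adjusted p under 0.05). The immediate early and heat shock sum was 11459 to 17200 CPM in blood endothelial-like and 5837 to 11362 in LEC-like cells of these libraries, and its part in these differences was not tested. Of the 32 pathway genes tested there, 10 were higher and 7 lower, where 29.1% and 28.4% of all genes were.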
